A study of Mus musculus with 4 samples.

Results

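Transcripts of 9 chemokine receptors other than Ccr6, the receptor of Ccl20, were followed in T helper 17 (Th17) cells with and without recombinant serum amyloid A1 (SAA1). They are Cxcr3, Cxcr4, Cxcr5, Cxcr6, Ccr1, Ccr2, Ccr4, Ccr8 and Ccr9, taken by symbol as receptors of T helper subsets, and they make up 9 of the 23356 gene rows of the authors' deposited table. The SAA1 group holds 2 libraries of T cells from wild-type C57BL/6 mice aged 6 to 8 weeks, kept for 48 h in Th17 culture with 2 ng/ml (the labelled dose) of recombinant mouse SAA1. The vehicle group holds 2 libraries of the same cells, time and culture, titled as vehicle and labelled as untreated. The sources used here do not say whether the libraries came from separate mice or cultures, which cytokines the Th17 culture held, or whether cells were sorted. Expression is in FPKM, a count of fragments divided by transcript length and by all mapped fragments, so that levels can be compared between genes. The authors gave 1 value per group, so the value in each library, the spread between libraries and the depth are unknown, and every FPKM below is the authors' value for a group.

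Chemokine receptors are G protein-coupled receptors that read gradients of small secreted proteins, the chemokines, and steer the cell towards their source through Gi proteins, PI3 kinase gamma and Rac. T helper cells carry different sets of them according to their programme: Cxcr3 marks Th1 cells and takes them into tissue inflamed by interferon, Ccr4 and Ccr8 are typical of Th2 and regulatory T cells and of skin, and Cxcr5 takes follicular helper cells into B cell follicles. Cxcr4 binds Cxcl12 and holds cells in bone marrow and lymphoid tissue, Cxcr6 binds Cxcl16 in liver and mucosa, and Ccr9 binds Ccl25 of the small intestine. Ccr1 and Ccr2 receive inflammatory chemokines and are best known from monocytes, although subsets of effector T cells carry them too.

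The DNA just upstream of the transcription start is shown for the pair of receptors that changed, Cxcr3 and Cxcr4, and for the pair at the highest level with SAA1, Ccr8 and Ccr4. Each line holds the 250 bases before the RefSeq start on GRCm38.p6, read 5′ to 3′ on the gene's strand, which is minus for Cxcr3, Cxcr4 and Ccr4 and plus for Ccr8. The windows are chrX:101734148-101734397 for Cxcr3, chr1:128592300-128592549 for Cxcr4, chr9:120091883-120092132 for Ccr8 and chr9:114496545-114496794 for Ccr4. Capitals mark matches, on either strand, to any of 7 motifs. The TATA box, which lies just before the start of many genes, was searched as TATAAA. The GC box, bound by Sp1 and its relatives, was searched as GGGCGG. The site shared by STAT factors was searched as TTCNNNGAA, and that of the AP-1 factors, which act with BATF in Th17 cells, as TGANTCA. The half-site of nuclear receptors was searched as AGGTCA. The half-site of the T-box family, to which T-bet belongs, was searched as GGTGTGA. The site of the ETS family, many members of which act in lymphocytes, was searched as GGAAGT.
Cxcr3: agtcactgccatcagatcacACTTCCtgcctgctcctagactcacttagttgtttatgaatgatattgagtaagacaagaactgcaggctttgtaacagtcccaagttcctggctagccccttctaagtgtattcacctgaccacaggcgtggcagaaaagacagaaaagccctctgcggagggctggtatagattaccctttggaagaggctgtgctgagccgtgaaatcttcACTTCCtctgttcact
Cxcr4: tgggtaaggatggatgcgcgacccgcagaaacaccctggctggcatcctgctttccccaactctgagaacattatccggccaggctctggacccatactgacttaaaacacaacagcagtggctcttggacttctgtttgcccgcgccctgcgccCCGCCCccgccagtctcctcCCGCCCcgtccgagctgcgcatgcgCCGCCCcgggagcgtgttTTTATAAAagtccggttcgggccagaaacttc
Ccr8: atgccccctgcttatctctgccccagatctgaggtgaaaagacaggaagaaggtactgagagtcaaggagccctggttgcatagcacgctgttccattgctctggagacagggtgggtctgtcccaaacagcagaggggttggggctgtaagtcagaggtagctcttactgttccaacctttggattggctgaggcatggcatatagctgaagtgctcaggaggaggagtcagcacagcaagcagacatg
Ccr4: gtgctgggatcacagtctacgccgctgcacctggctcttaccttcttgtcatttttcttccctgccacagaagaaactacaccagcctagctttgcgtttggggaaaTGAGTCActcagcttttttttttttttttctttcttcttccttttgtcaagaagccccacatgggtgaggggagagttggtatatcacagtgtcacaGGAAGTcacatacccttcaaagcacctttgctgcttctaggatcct
The windows of Cxcr3 and Cxcr4 differed in make. That of Cxcr4 is 61.2% G and C with 19 CG dinucleotides, and more CG than 80.3% of the 32851 RefSeq windows, while that of Cxcr3 is 48.0% G and C with 3 CG, more than 29.0% of the windows. A low CG count is not particular to Cxcr3. The Ccr4 window is 46.4% G and C with 3 CG, and the Ccr8 window 53.6% with 1 CG, and both genes had ratios above 0. A link between the make of a window and the direction of change was not tested. The Cxcr4 window holds 3 GC boxes, ending 45 bases before the start at the nearest, and a stretch that matches the TATA box on both strands in overlapping positions, 32 to 25 bases before it. The Cxcr3 window holds the ETS letters at 2 places, the nearer one 16 to 11 bases before the start. The Ccr4 window holds the AP-1 letters once and the ETS letters once, and the Ccr8 window holds none of the 7 motifs. Of all windows, 12.4% match the TATA box, 32.7% the GC box, 7.02% STAT, 6.75% AP-1, 14.0% the nuclear receptor half-site, 3.33% the T-box and 19.7% ETS. These are matches of letters in a short window, and binding was not measured.

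With SAA1, Cxcr3 fell and Cxcr4 rose, each by close to the same factor, and the other 7 receptors were not called. The Cxcr4 call held with the authors' p and not with a normal p of their statistic. Of the 9, 6 reached 1 FPKM and were tested by the authors' Cuffdiff run, and 2 of these 6 were called at an adjusted p under 0.05, 1 higher and 1 lower. Over all 11481 tested genes 6.52% were called, 3.97% higher and 2.55% lower. With so few tested members, 2 calls of 6 is a count and no measure of the family. The median log2 ratio of SAA1 over vehicle was 0.39 over the 6 tested receptors and -0.02 over all tested genes, and 4 of the 6 had a ratio above 0, against 46.8% of all tested genes. An unadjusted p under 0.05 was reached by 5 of the 6, all but Cxcr6, and by 15.8% of all tested genes.

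**Figure D1:**
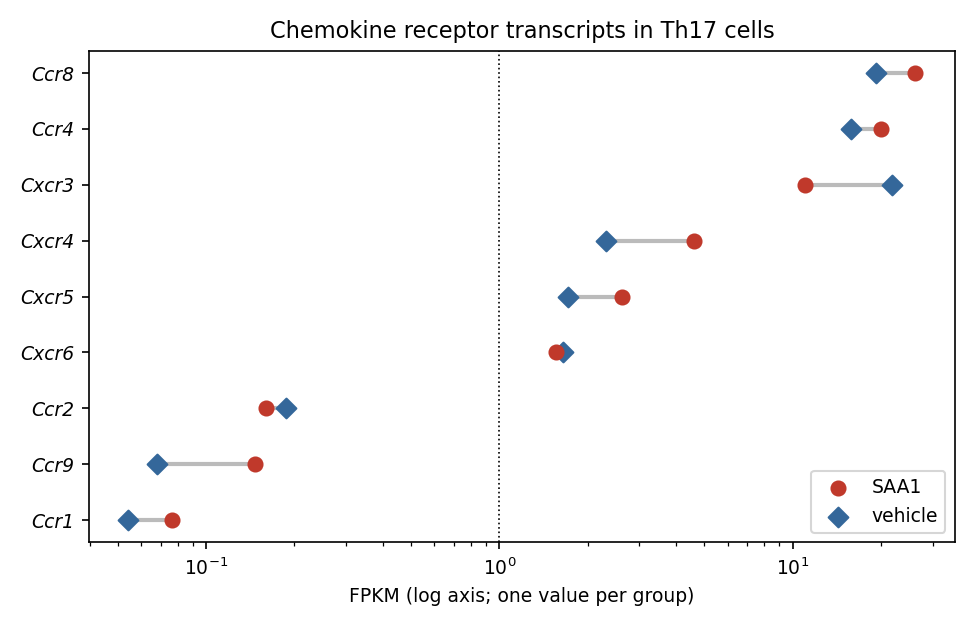
Level of each receptor in FPKM on a log axis, with a circle for the SAA1 group and a diamond for the vehicle group, 1 value per group and no error available. The dotted line is 1 FPKM. Ccr8, Ccr4 and Cxcr3 lie above 10 FPKM in both groups, Cxcr4, Cxcr5 and Cxcr6 between 1 and 5 FPKM, and Ccr2, Ccr9 and Ccr1 below 0.2 FPKM.

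Cxcr3, the receptor of Cxcl9, Cxcl10 and Cxcl11, was at 11.02 FPKM with SAA1, against 21.8 FPKM with vehicle. The log2 ratio was -0.98 ± 0.24 (SE implied by the authors' test statistic; adjusted p 0.00191 in the authors' deposited table). This is the smallest adjusted p there, shared by 300 genes at the lowest deposited Cuffdiff p of 5e-05, so it does not rank Cxcr3 among them. Cxcr3 was thus at 0.506 times its vehicle level, and 72 of the 293 genes called lower had a smaller ratio. Cxcr3 spans chromosome X from 101731536 to 101734147 on mm10, and its locus overlaps no other gene row.

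Cxcr4, the receptor of Cxcl12, was at 4.60 FPKM with SAA1, against 2.31 FPKM with vehicle. The log2 ratio was 0.99 ± 0.33 (SE implied by the authors' test statistic), a fold of 1.99 (adjusted p 0.0071 in the authors' deposited table). Of the 456 genes called higher, 168 had a larger ratio. The call rests on the authors' own p of 0.00025, since a two-sided normal p of the test statistic in the authors' deposited table was 0.00294, which gave an adjusted p of 0.105 and ended the call. By that calculation 2.17% of the genes with a statistic were called, and 1 of the 6 receptors. For Cxcr3 the same calculation gave an adjusted p of 0.0029, so its call remained. Cxcr4 lies on chromosome 1 from 128588199 to 128592299.

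Ccr8 and Ccr4, the receptors typical of Th2 and regulatory T cells, had ratios above 0 that did not pass the test. Ccr8, which binds Ccl1 and, in mice, Ccl8, was at 26.2 FPKM with SAA1, against 19.2 FPKM with vehicle. Its log2 ratio was 0.45 ± 0.24 (SE), with a 95% interval from -0.02 to 0.91 by the implied SE (adjusted p 0.0947 in the authors' deposited table). Ccr4, which binds Ccl17 and Ccl22, was at 20.05 FPKM with SAA1, against 15.8 FPKM with vehicle. Its log2 ratio was 0.34 ± 0.22 (SE), with an interval from -0.08 to 0.76 (adjusted p 0.207 in the authors' deposited table). The upper ends of these intervals lie below the ratio of Cxcr4 but well above 0, so the missed threshold does not show that these receptors stayed level. Both genes lie on chromosome 9, Ccr8 from 120092133 to 120094906 and Ccr4 from 114490316 to 114496544.

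Cxcr5 and Cxcr6 were present at low levels. Cxcr5, the follicular receptor for Cxcl13, was at 2.62 FPKM with SAA1, against 1.72 FPKM with vehicle. Its log2 ratio was 0.61 ± 0.32 (SE), with an interval from -0.01 to 1.23 (adjusted p 0.0912 in the authors' deposited table). At a looser threshold of 0.1 on the adjusted p, Cxcr5 and Ccr8 would be called higher beside Cxcr4, which makes 4 calls of 6, where 8.81% of all tested genes are called. Cxcr6, the receptor of Cxcl16, was at 1.56 FPKM with SAA1, against 1.65 FPKM with vehicle. Its log2 ratio was -0.09 ± 0.66 (SE), with an interval from -1.39 to 1.22 (adjusted p 0.978 in the authors' deposited table). That interval is the widest of the 6 and holds the ratios of both Cxcr3 and Cxcr4. Cxcr6 lies within Fyco1, a gene of autophagosome transport on the other strand, and the table gives both the same locus on chromosome 9, from 123789510 to 123851899. Fyco1 was at 1.45 FPKM with SAA1, against 1.25 FPKM with vehicle, and the sources used here do not say how reads were shared between them. Cxcr5 lies on chromosome 9 from 44511787 to 44526421.

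**Figure D2:**
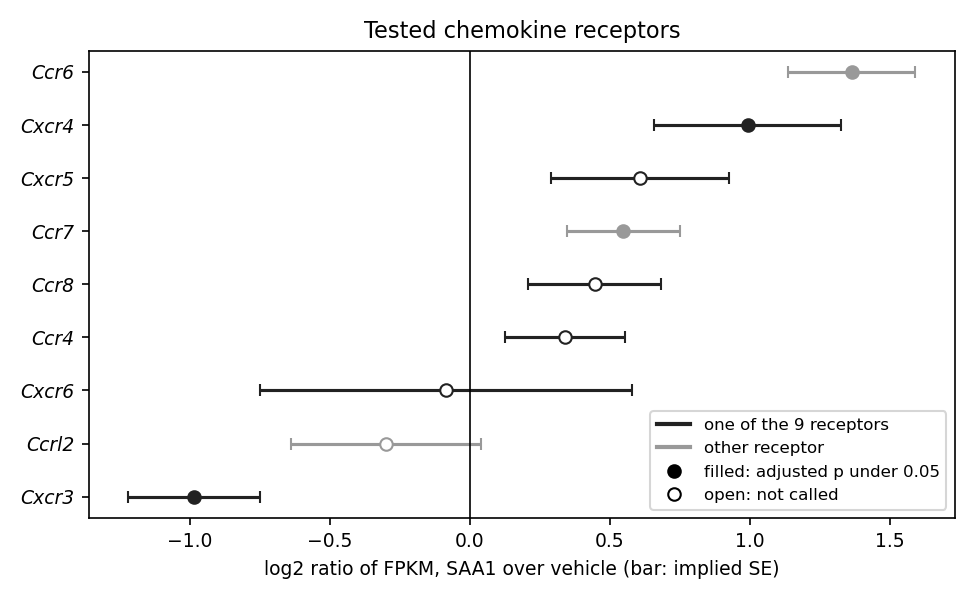
Log2 ratio of FPKM, SAA1 over vehicle, of 9 chemokine receptors that the authors tested, with the implied SE as the bar. Black marks 6 of the 9 receptors described and grey 3 others, and filled symbols have an adjusted p under 0.05. Cxcr3 lies at -0.98 and Cxcr4 at 0.99, beside Ccr6 at 1.36 and Ccr7 at 0.55, while Cxcr6 has the widest bar.

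Ccr1, Ccr2 and Ccr9 were near the bottom of the scale and were not tested. Ccr2, the receptor of Ccl2, was at 0.160 FPKM with SAA1, against 0.187 FPKM with vehicle. Ccr9, the gut-homing receptor, was at 0.146 FPKM with SAA1, against 0.0679 FPKM with vehicle, and Ccr1, which binds Ccl3 and Ccl5, was at 0.0766 FPKM with SAA1, against 0.0543 FPKM with vehicle. At these levels no fold is given, since the number of fragments behind them is unknown. Ccr1 and Ccr2 can mark myeloid cells, and all 12 monocyte, macrophage and dendritic cell markers checked were below 1 FPKM in both groups, at a summed 1.04 FPKM with SAA1 and 1.68 FPKM with vehicle, with C1qa and C1qb listed at 0 in both.

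Set side by side, the order of the receptors differed between the groups at its top alone. With SAA1 the order was Ccr8, Ccr4, Cxcr3, Cxcr4, Cxcr5 and Cxcr6, and with vehicle it was Cxcr3, Ccr8, Ccr4, Cxcr4, Cxcr5 and Cxcr6, followed in both by Ccr2, Ccr9 and Ccr1. Without values per library it cannot be said which neighbours in these orders differ beyond their spread. The summed level of the 9 receptors was 66.4 FPKM with SAA1 and 62.9 FPKM with vehicle. Of that sum, Cxcr3 made up 16.6% with SAA1 and 34.7% with vehicle, and Cxcr4 6.92% with SAA1 and 3.68% with vehicle. Ccr8 made up 39.5% with SAA1 and 30.6% with vehicle, and Ccr4 30.2% with SAA1 and 25.2% with vehicle. These shares are ratios of group values with no error of their own. The level of Ccr8 was 2.38 times that of Cxcr3 with SAA1 and 0.883 times with vehicle, and that of Cxcr4 was 0.417 times that of Cxcr3 with SAA1 and 0.106 times with vehicle. In bulk RNA, a lower share of cells that carry a receptor and less of its RNA per cell cannot be told apart.

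**Figure D3:**
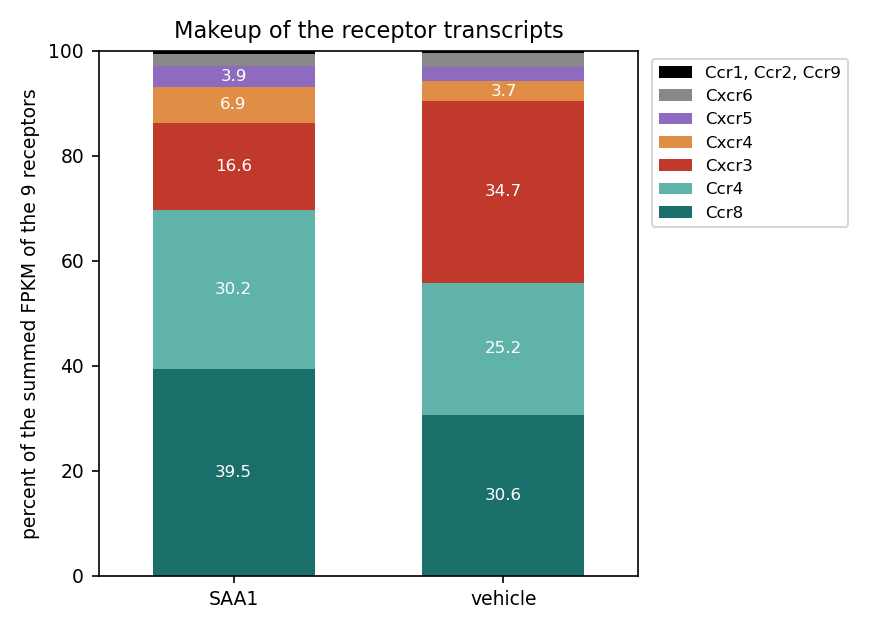
Share of each receptor in the summed FPKM of the 9, in percent, with the SAA1 group on the left and the vehicle group on the right. Cxcr3 takes 16.6% with SAA1 and 34.7% with vehicle, Ccr8 takes 39.5% with SAA1 and 30.6% with vehicle, and Ccr1, Ccr2 and Ccr9 together are a thin line at the top.

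Against all genes that reached 1 FPKM in a group, the receptors were of middling to low abundance. Ccr8 was above 64.8% of the 10701 such genes with SAA1 and above 55.4% with vehicle, and Cxcr3 was above 39.7% with SAA1 and above 59.0% with vehicle. Cxcr4 was above 20.4% with SAA1 and above 11.1% with vehicle. The implied SE was larger for the low receptors, at 0.66 for Cxcr6, whose locus is shared, 0.33 for Cxcr4 and 0.32 for Cxcr5. It was 0.24 for Ccr8, 0.24 for Cxcr3 and 0.22 for Ccr4, beside a median of 0.22 over tested genes. Within the low or the high receptors it did not strictly follow the level.

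**Figure D4:**
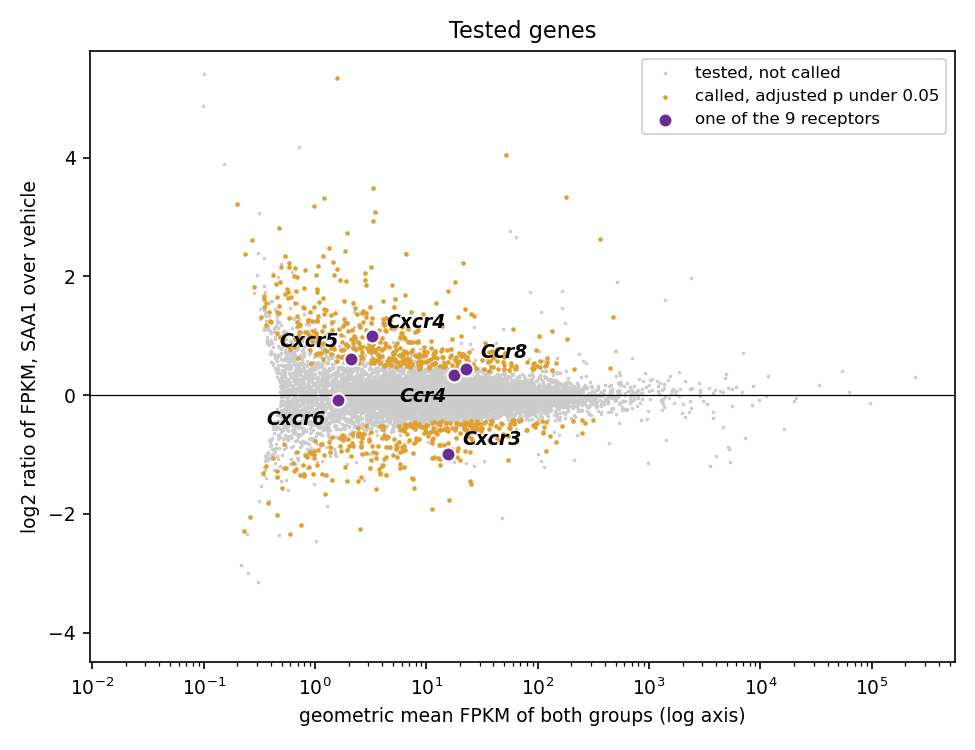
Log2 ratio of FPKM, SAA1 over vehicle, against the geometric mean FPKM of the groups on a log axis, for tested genes above 0 in both groups, of which 6 lie outside the vertical axis. Grey points were not called, orange points had an adjusted p under 0.05, and purple points are the 6 tested receptors. Cxcr4 at 0.99 and Cxcr3 at -0.98 lie among the called genes above and below the centre, and Cxcr6 at -0.09 lies inside it.

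A family of receptor genes lies side by side on chromosome 9, and 4 of the 9 receptors belong to it. From Ccr9 to Ccr2, over 342 kb, the table holds 7 receptor genes, of which Cxcr6 alone reached 1 FPKM. Xcr1, the receptor of Xcl1, was at 0.156 FPKM with SAA1, against 0.0766 FPKM with vehicle, and Ccr3, the eotaxin receptor, was at 0.131 FPKM with SAA1, against 0.157 FPKM with vehicle. Ccr1l1, a close relative of Ccr1, was at 0.0460 FPKM with SAA1 and listed at 0 with vehicle. None of the 7 was called, and 6 were not tested. Ccr8 and Ccr4, on the same chromosome but outside this stretch, were at far higher levels.

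**Figure D5:**
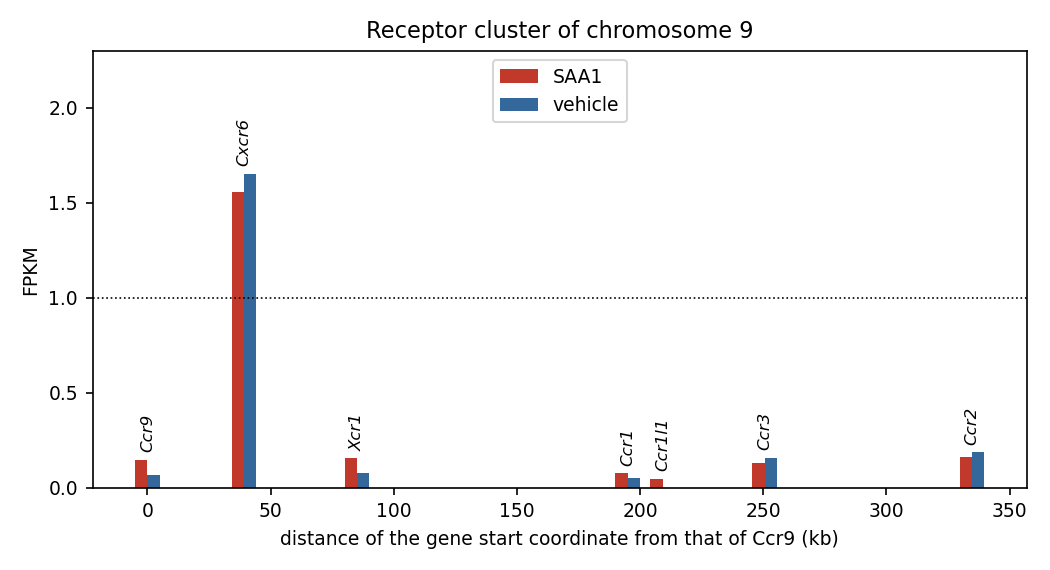
FPKM of the 7 receptor genes from Ccr9 to Ccr2 on chromosome 9 against the distance of each gene's start coordinate on GRCm38 from that of Ccr9, in kb, with the SAA1 group as the left bar and the vehicle group as the right bar. The dotted line is 1 FPKM. Cxcr6 exceeds it in both groups, while Ccr9, Xcr1, Ccr1, Ccr1l1, Ccr3 and Ccr2 lie below 0.2 FPKM.

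Among the other receptors, Ccr6 and Ccr7 were the ones called. Ccr6 rose to 40.6 FPKM with SAA1, against 15.8 FPKM with vehicle. Ccr7, the receptor for the lymph node chemokines Ccl19 and Ccl21, rose to 111 FPKM with SAA1, against 76.1 FPKM with vehicle (log2 ratio 0.55 ± 0.20), a call that a normal p of the statistic did not keep (adjusted p 0.178). Ccr10, Cxcr1, Cxcr2 and Cx3cr1 were at most at 0.0622 FPKM with SAA1 and 0.0677 FPKM with vehicle. Over 22 typical and atypical receptors, 9 reached 1 FPKM, and of these 3 were called higher and 1 lower in the authors' deposited table. Cxcr3 was thus the one receptor called lower of these 9. Over all tested genes 3.97% were called higher and 2.55% lower, and with only 9 receptors these counts are no measure of the family. The atypical receptors, which take up chemokines without moving the cell, were nearly silent: Ackr1, Ackr2, Ackr3 and Ackr4, listed under older symbols, reached 0.121 FPKM with SAA1 and 0.144 FPKM with vehicle. Ccrl2, which binds chemerin, was at 2.05 FPKM with SAA1, against 2.52 FPKM with vehicle (adjusted p 0.653 in the authors' deposited table).

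Ligands of the 9 receptors showed no call. Of 17 genes, 7 were tested, 0 were called by Cuffdiff and 3 had an unadjusted p under 0.05 in the authors' deposited table. Among all tested genes 6.52% were called and 15.8% had an unadjusted p under 0.05. With 7 tested ligands, 0 calls do not set them apart from that share. By a normal p of the statistic, 0 ligands were called as well, against 2.17% of all genes with a statistic. Of the ligands of Cxcr3, Cxcl10, whose locus holds Cxcl11, was at 1.33 FPKM with SAA1, against 2.20 FPKM with vehicle (adjusted p 0.256 in the authors' deposited table). Cxcl9 was at 0.00919 FPKM with SAA1, against 0.0304 FPKM with vehicle, and Cxcl11 was listed at 0 with SAA1, against 0.0409 FPKM with vehicle. Cxcl12, the ligand of Cxcr4 that stromal cells make, was at 0.0748 FPKM with SAA1, against 0.00502 FPKM with vehicle. Among the tested ligands the log2 ratio lay farthest from 0 for Ccl5, which binds Ccr1. It was at 1.66 FPKM with SAA1, against 4.49 FPKM with vehicle (adjusted p 0.0654 in the authors' deposited table). The median log2 ratio of the tested ligands was 0.03.

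Of the genes that couple the receptors to G proteins or switch them off, 1 of 21 tested was called higher and 0 lower, or 4.76%. This is near the share over all tested genes, of which 6.52% were called, 3.97% higher and 2.55% lower. The called gene was Arrb1, β-arrestin 1, which binds the phosphorylated receptor and ends its signal. It rose to 9.67 FPKM with SAA1, against 5.71 FPKM with vehicle (log2 ratio 0.76 ± 0.21, adjusted p 0.00191 in the authors' deposited table). Its locus overlaps that of another gene row, and how reads were shared between them is unknown. The more abundant Arrb2 was at 43.9 FPKM with SAA1, against 42.2 FPKM with vehicle, and Gnai2, the main Gi subunit of lymphocytes, at 191 FPKM with SAA1, against 179.7 FPKM with vehicle. Rgs16, which speeds the shutdown of G proteins, was at 87.2 FPKM with SAA1, against 115 FPKM with vehicle (adjusted p 0.0569 in the authors' deposited table). The median log2 ratio of the tested genes of this list was -0.08.

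Genes of the migration machinery held 3 calls, all higher, among 31 tested, or 9.68%, with a median log2 ratio of -0.05. Of all tested genes, 6.52% were called, 3.97% higher and 2.55% lower. So few calls are a count and no measure of the migration genes as a set. Pik3r6 and Pik3r5 encode the p84 and p101 subunits that put PI3 kinase gamma under the control of Gβγ. Pik3r6 rose to 1.94 FPKM with SAA1, against 0.559 FPKM with vehicle (log2 ratio 1.80 ± 0.37, adjusted p 0.00191 in the authors' deposited table). Pik3r5 rose to 6.51 FPKM with SAA1, against 4.25 FPKM with vehicle (0.61 ± 0.23, adjusted p 0.0047 in the authors' deposited table). Prex1, a Rac activator that also answers to Gβγ, rose to 10.03 FPKM with SAA1, against 7.37 FPKM with vehicle (0.45 ± 0.21, adjusted p 0.0448 in the authors' deposited table). The calls of Pik3r5 and Prex1 did not remain with a normal p of the statistic, at adjusted p of 0.186 and 0.497, whereas those of Pik3r6 and Arrb1 did, at 0.000231 and 0.0191. Pik3cg, the catalytic subunit, was at 5.85 FPKM with SAA1, against 5.97 FPKM with vehicle.

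The lineage factors tied to these receptors were set beside them, and 1 of 7 tested was called, 0 higher and 1 lower. The share called over all tested genes was 6.52%, with 2.55% lower, and 1 call of 7 is no measure of these factors. Tbx21 encodes T-bet, a known activator of Cxcr3, and was at 18.5 FPKM with SAA1, against 22.3 FPKM with vehicle (log2 ratio -0.27 ± 0.21, adjusted p 0.373 in the authors' deposited table). Gata3, the Th2 factor, fell to 0.687 FPKM with SAA1, against 1.36 FPKM with vehicle (adjusted p 0.0195 in the authors' deposited table), a call that did not remain with a normal p (adjusted p 0.282), while Ccr4 and Ccr8 had ratios above 0. Bcl6, the factor of Cxcr5-bearing follicular cells, was at 4.76 FPKM with SAA1, against 3.78 FPKM with vehicle (adjusted p 0.351 in the authors' deposited table). Foxp3 and Eomes were at 0.184 and 0.154 FPKM with SAA1 and at 0.169 and 0.180 FPKM with vehicle. Rora, Runx1 and Runx3, factors of T helper cells, were at 18.3, 16.6 and 6.59 FPKM with SAA1 and at 14.6, 13.2 and 5.68 FPKM with vehicle, and none of them was called. Klf2, a factor of resting T cells, was at 0.290 FPKM with SAA1 and 0.525 FPKM with vehicle, not called, while Prdm1 and Zbtb16 were below 0.05 FPKM in both groups.

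Markers of the labelled cells were present in both groups. Of 6 T cell and Th17 markers, all tested, 3 were called higher and 1 lower, against 3.97% higher and 2.55% lower over all tested genes. With 6 markers chosen by name, these counts are no measure of a marker set. Il17a was at 568 FPKM with SAA1 and 56.0 FPKM with vehicle, and Il17f at 898 FPKM with SAA1 and 145 FPKM with vehicle. Cd3e, a chain of the T cell receptor complex, fell to 28.2 FPKM with SAA1, against 39.1 FPKM with vehicle, while Il23r, a subunit of the interleukin-23 receptor, rose to 10.5 FPKM with SAA1, against 7.32 FPKM with vehicle. The calls of Cd3e and Il23r did not remain with a normal p of the statistic (adjusted p 0.471 and 0.436), whereas those of Il17a and Il17f did. Cd4 was at 131 FPKM with SAA1, against 162 FPKM with vehicle, and was not called. Cells that carry Cxcr5 or Cxcr3 but are not CD4 T cells were looked for as well. The 5 B cell markers were each below 1 FPKM, at a summed 1.53 FPKM with SAA1 and 2.01 FPKM with vehicle, and none was at 0. The 5 CD8 T and natural killer cell markers summed to 4.39 FPKM with SAA1 and 4.51 FPKM with vehicle, nearly all from Cd8b1, with Klrb1c listed at 0 in both groups and Ncr1 at 0 with vehicle. The summed neutrophil markers were at 0.147 FPKM with SAA1 and listed at 0 with vehicle, and those of eosinophils and mast cells at 0.772 FPKM with SAA1 and 0.810 FPKM with vehicle. The part of such cells in the levels of the receptors was not tested.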

How the data were processed

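RNA of 4 libraries, 2 with SAA1 and 2 with vehicle by their titles, was aligned with TopHat2 and compared with Cuffdiff, without versions, per the submitters' processing notes, which name mm9 and mm10. The authors deposited 1 table of gene differences with an FPKM value per group, a test statistic (a score, the log ratio over its standard error) and a p-value and q-value per gene. The sources used here state no scaling, filter or strand setting. Of 21455 symbols found in the GRCm38 gene table, 99.0% overlapped their position there, so coordinates are mm10, counted from 1. From the table, log2 ratios, implied standard errors (ratio over statistic), intervals (1.96 SE) and a normal p with Benjamini-Hochberg adjustment were computed with Python 3.11.15 and pandas 2.3.3. The deposited p does not follow from the statistic by a normal law. It is often smaller, so an interval can hold 0 where the unadjusted p is small. The deposited q-value matched the adjustment of the deposited p over 11481 tested genes within 5.23e-07. A gene was called at an adjusted p under 0.05. The code for the adjustment and the implied standard errors was checked on simulated normal statistics, a check that does not bear on the deposited p-values. All p-values rest on the error that the authors' Cuffdiff run estimated from these libraries, whose spread may be technical. How that error was estimated for each gene is unknown, so the p-values are no direct measure of the spread between libraries.

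The members and the 12 other gene lists were chosen with earlier results of these data known. The text names the 9 receptors, other receptors and lineage factors, the ligands of the called receptors, and up to 6 called members of each remaining list, or the 2 with the largest fold at 1 FPKM or more where fewer than 2 were called. Fyco1, Ccr1l1, Arrb2, Gnai2, Pik3cg, Cd4 and the markers listed at 0 were added after their values were seen. Trac and Ly6g were not analysed here, and a few other members of these lists are not reported here. Upstream sequences are RefSeq's on GRCm38.p6, found for 8 of the 9 receptors, all but Cxcr5. Alternatives covered thresholds, fold and level minimums, adjustments, shared loci, centring and pseudocounts. Design choices for values per library could not be used, because the table gives 1 value per group.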

Additional observations from a re-analysis of the deposited data

How the results depend on the processing

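Both calls among the receptors, Cxcr3 and Cxcr4, remained at a threshold of 0.01 on the adjusted p, with a fold minimum of 1.5, with a minimum of 1 FPKM, with the adjustment over genes of at least 1 FPKM and without genes that share a locus. At a threshold of 0.1 there were 4 calls, and with a normal p of the test statistic 1 (Cxcr3). Of the 7 calls in the related lists (other receptors, ligands, coupling, migration and lineage factors), 3 remained with the normal p, and their number was between 5 and 11 under the other alternatives. All 18 alternative log2 ratios of the 6 tested receptors (centring, pseudocounts of 0.1 and 1) kept their sign, and each moved by less than its implied SE. The median ratio of the 6 ranged from 0.37 to 0.42. No paired analysis was possible because the table gives 1 value per group, and for the same reason the omission of each replicate and a fit per library were not run. The depth is unknown, and Ccr1, Ccr2 and Ccr9, each below 0.2 FPKM, were not tested by the authors.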
